A study of Mus musculus with 6 samples.

Results

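The genes described here are the corticosteroid receptors, the enzymes Hsd11b1 and Sult1a1, and transcripts that glucocorticoids are known to induce. They were measured in mouse cerebral cortex labelled Cux2 knock-out and in control cortex. The 8 genes, of 27670 gene names on the array, were found by the names in its design, and all probes that it names Nr3c1, Nr3c2, Fkbp5, Sgk1 (older name Sgk), Tsc22d3, Cdkn1a, Sult1a1 or Hsd11b1 were taken, which gave 18 of 41174 probes. RNA came from cerebral cortex of male mice and was hybridised to 1-colour Agilent arrays, 1 array per sample. The 3 labelled knock-outs (samples 53, 48 and 54) carry the genotype label Cux2-/-. The 3 controls (samples 15, 62 and 16) have titles that say wild type but a genotype label of Cux2+/-, and are called controls here. Age, strain and the structure of the Cux2 allele were not stated. Nothing in the labels ties each sample to its own mouse, so the p-values refer to the spread among these 6 RNA samples, which may be technical.

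Corticosterone, the main glucocorticoid of mice, acts on neurons and glia through 2 nuclear receptors, the glucocorticoid receptor encoded by Nr3c1 and the mineralocorticoid receptor encoded by Nr3c2. In the cytoplasm the receptor is held by Hsp90 chaperones, and after binding hormone it moves to the nucleus, where it binds palindromic response elements beside its target genes. Fkbp5, Sgk1 and Tsc22d3 are among the best known of these targets in brain, and Fkbp5 protein in turn lowers the affinity of the receptor for hormone.

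In none of these genes did the difference between labelled knock-out and control cortices exceed the spread between arrays by the test used. Of the 18 probes, 15 were tested because every array of 1 or both groups read them well above background, and 0 of the 15 passed an adjusted p of 0.05 in limma (lowest adjusted p = 0.792), while 33 of 25507 tested probes did (percent called 0.129). An unadjusted p under 0.05 was also reached by 0 of the 15, against 7.95% of all tested probes (4.07% with the lower mean in knock-outs). The 2 groups overlapped for all 15 tested probes, and over all tested probes 13.1% did not overlap. In 12 of the 15 the knock-out mean was the lower, against 50.1% of all tested probes, and their median difference was -0.12 on the log2 scale. That count rested on control 15: without it 8 of 16 tested probes were lower, against 50.5% of all. Among those 8 is a dim Nr3c2 probe that entered the test only then, through the 2 remaining controls. With slide as a block 5 of the 15 (the 3 of Tsc22d3, 1 of Fkbp5 and that of Sult1a1, all lower in knock-outs) reached an unadjusted p under 0.05, against 7.81% of all tested probes, and 0 passed after adjustment in limma (lowest adjusted p = 0.383). A single control array held many of the highest values: 10 of the 15 probes had their highest value on control 15, where 21.1% of all tested probes had theirs, and 4 on control 62 (19.3%). Control 15 exceeded every other array by more than 0.5 on the log2 scale for 6 of the 15, against 1.04% of all tested probes, a limit chosen after the values were seen. The range over the 6 arrays was above 1 for 6 of the 15, against 8.77%. The same 6 probes met both limits: the 3 of Fkbp5, 1 of Tsc22d3 (0.5003 above the next array) and those of Sgk1 and Sult1a1. Probes of 1 gene are not independent, so these counts of probes cover fewer genes.

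Between 58.5% and 68.1% of probes were well above background on the knock-out arrays and between 62.7% and 72.7% on the control arrays, with control 15 at 62.7%. Cux2 itself, the targeted gene, differed by -0.12 (SE 0.10) at its brighter probe (limma, adjusted p = 0.838) and by +0.08 (SE 0.15) at its other probe (limma, adjusted p = 0.947). Whether either lies inside the deleted part was not stated, so they do not check the labels. Slc17a7 and Tbr1, markers of cortical excitatory neurons, were well above background on every array. The arrays lie on 2 slides, with knock-outs 48 and 54 and control 15 on slide 1 and knock-out 53 and controls 62 and 16 on slide 2. Control 15 is therefore the only control of slide 1, and a within-slide difference there is a difference from that array alone. Likewise knock-out 53 is the only knock-out of slide 2, and a within-slide difference there rests on that array.

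Nr3c1 was measured by 4 probes, which varied little apart from 1 low reading. Levels are given as log2 signal with the 75th percentile of that array's probes set to 0, and levels of different probes are not compared. The brightest probe (A_52_P138090) read 1.95, 1.98 and 2.04 on knock-out arrays 53, 48 and 54, against 2.04, 2.25 and 1.94 on control arrays 15, 62 and 16. Control 62 was the highest and control 16 the lowest, with the knock-outs between them. The mean was 1.99 ± 0.04 in knock-outs and 2.08 ± 0.16 in controls (SD, n = 3 each), a difference of -0.09 (95% interval -0.33 to 0.15, limma adjusted p = 0.899). The other 3 probes differed by -0.12, +0.20 and -0.08, each with an interval that includes 0. The third probe was the only one higher in knock-outs, and there control 16 read -3.38 while the other 5 arrays read between -2.85 and -2.75. The difference at the brightest probe was -0.03 within slide 1 and -0.14 within slide 2.

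Nr3c2, whose product binds corticosterone with high affinity and is known mostly from hippocampus, was near the detection limit in these cortices. Of its 3 probes 1 was tested, which cleared the background test on 2 knock-out arrays and on all 3 control arrays. It stood at -4.55 ± 0.13 in knock-outs and -4.46 ± 0.12 in controls (SD, n = 3 each), and the difference of -0.09 had an interval of -0.34 to 0.16 (limma, adjusted p = 0.905). A second probe was well above background on 1 knock-out and 2 control arrays, and the third was not well above background on any array, so neither is given a fold. Without control 15 the second probe entered the test, at -0.53 (limma, adjusted p = 0.458). It entered only because the 2 remaining controls read it well above background, which favours a lower knock-out value. The difference is therefore not read as a result.

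Hsd11b1 and Sult1a1 encode enzymes that act on small molecules before they reach a receptor or leave the cell. Hsd11b1 regenerates active glucocorticoid from its inert 11-keto form. Its probe read 1.24, 1.30 and 1.24 on knock-out arrays 53, 48 and 54, against 1.23, 1.62 and 0.78 on control arrays 15, 62 and 16. The knock-outs lay close together inside the wide range of the controls, control 15 among them, and the difference was 0.05 with an interval of -0.43 to 0.53 (limma, adjusted p = 0.975).

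Sult1a1, a sulfotransferase of phenolic compounds, showed the widest range of the tested probes of these genes, 1.90 on the log2 scale over 6 arrays. Its level was -0.13, 0.52 and 0.39 on knock-out arrays 53, 48 and 54, against 1.77, -0.09 and 0.45 on control arrays 15, 62 and 16. Control 15 stood 2.39-fold above the next highest array, knock-out 48, and the other 2 controls lay within the range of the knock-outs. The mean of 0.26 ± 0.34 in knock-outs and 0.71 ± 0.96 in controls (SD, n = 3 each) gave a difference of -0.45 with an interval of -1.56 to 0.66 (limma, adjusted p = 0.884). Without control 15 the difference was +0.08, of the opposite sign. It was -1.32 within slide 1 and -0.30 within slide 2.

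**Figure D1:**
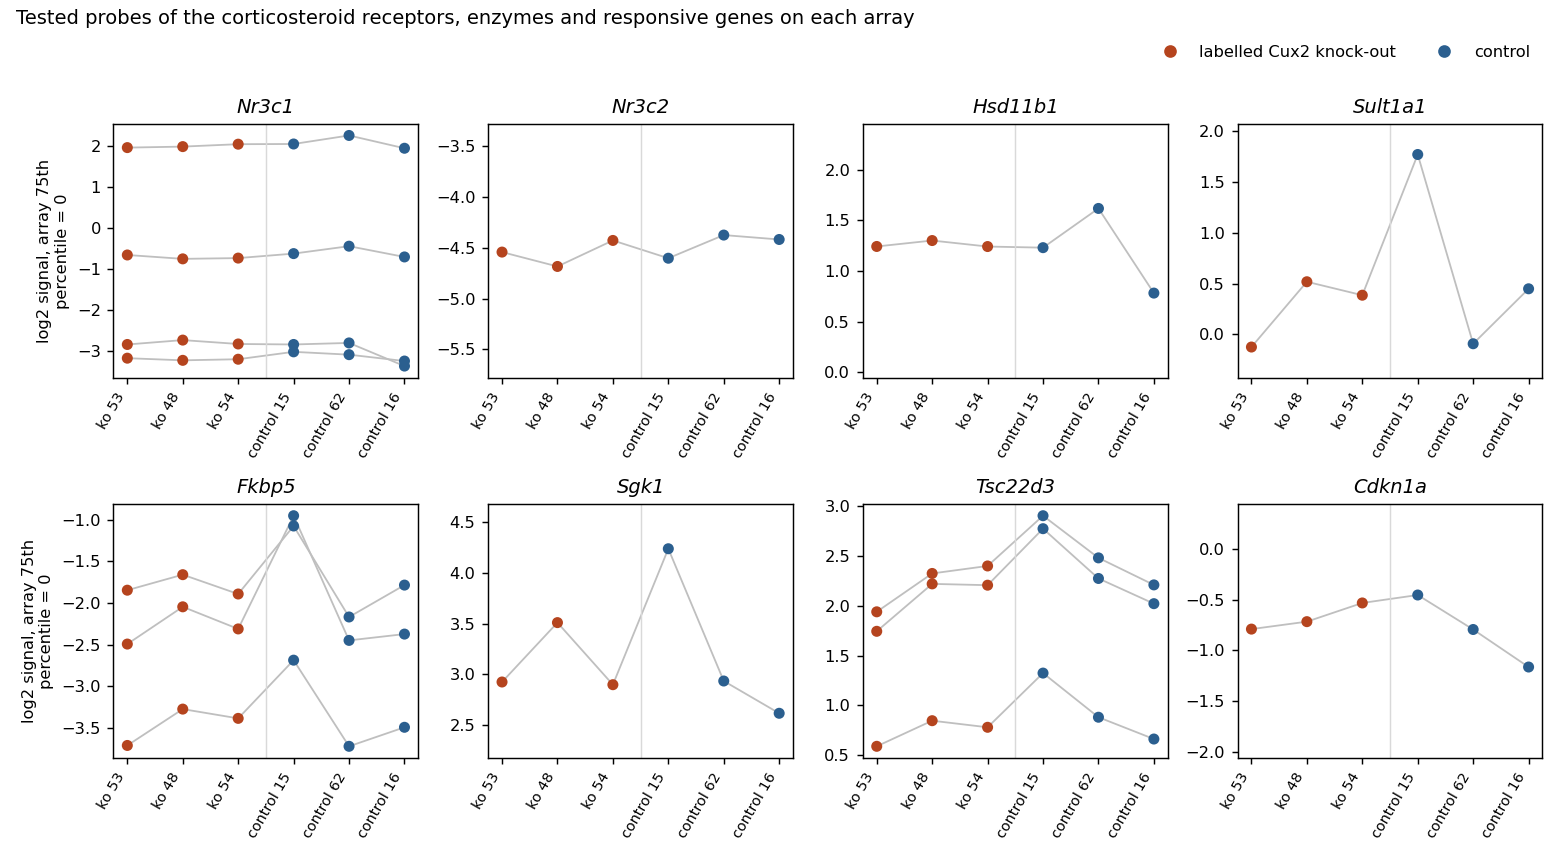
Level of each tested probe (log2 signal, the array's 75th percentile set to 0) on the 3 labelled knock-out arrays (orange) and the 3 control arrays (blue), 1 panel per gene and 1 line per probe. Control 15 is the highest array for Sult1a1, Sgk1, Cdkn1a and every tested probe of Fkbp5 and Tsc22d3, while 3 of the 4 Nr3c1 probes and the Nr3c2 probe span at most 0.31 and the other Nr3c1 probe is low on control 16.

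Fkbp5, an immunophilin that joins the receptor's chaperone complex, was measured by 3 probes that gave the same picture. The probe with the highest mean (A_51_P383689) read -1.85, -1.66 and -1.89 on knock-out arrays 53, 48 and 54, against -1.08, -2.17 and -1.79 on control arrays 15, 62 and 16. Control 15 was the highest array at all 3 probes, 1.50-fold, 2.13-fold and 1.50-fold above the next highest, which was knock-out 48 each time. The differences were -0.12 (95% interval -0.75 to 0.51), -0.36 (-1.31 to 0.59) and -0.16 (-0.81 to 0.50), with adjusted p between 0.893 and 0.952 in limma. Without control 15 all 3 turned to +0.18, +0.13 and +0.15. Within slide 1 they were -0.70, -1.22 and -0.64, and within slide 2 they were +0.13, -0.08 and -0.10.

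Sgk1 encodes a serum- and glucocorticoid-induced kinase that acts on ion channels and transporters. Its tested probe read 2.92, 3.51 and 2.90 on knock-out arrays 53, 48 and 54, against 4.24, 2.93 and 2.62 on control arrays 15, 62 and 16. Control 15 was 1.66-fold above knock-out 48, the next highest array, while control 62 lay within the range of the knock-outs and control 16 was the lowest array. The mean was 3.11 ± 0.35 in knock-outs and 3.26 ± 0.86 in controls (SD, n = 3 each). The difference of -0.15 (interval -1.16 to 0.86, limma adjusted p = 0.966) became +0.34 without control 15, and it was -1.03 within slide 1 and +0.15 within slide 2. A second probe was not well above background on any array.

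The promoter windows of these genes were searched for the glucocorticoid response element, since the receptor is known to bind it in DNA. The palindrome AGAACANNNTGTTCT, which reads the same on both strands, was looked for in the 250 bases before and 50 bases after each annotated start site in RefSeq (GRCm38.p6), as was either arm of it alone (AGAACA, or TGTTCT on the other strand, including arms inside a palindrome). The palindrome occurred in 3 of 32851 windows (0.00913%), and 1 of the 3 is a window of Sgk1. It begins at position -189 relative to the start site in 1 of the 6 Sgk1 windows, at chr10:21993640-21993939 on the plus strand, shown because such a match is this rare, with the palindrome in capitals. A further arm at position -242 is left in lower case.
Sgk1: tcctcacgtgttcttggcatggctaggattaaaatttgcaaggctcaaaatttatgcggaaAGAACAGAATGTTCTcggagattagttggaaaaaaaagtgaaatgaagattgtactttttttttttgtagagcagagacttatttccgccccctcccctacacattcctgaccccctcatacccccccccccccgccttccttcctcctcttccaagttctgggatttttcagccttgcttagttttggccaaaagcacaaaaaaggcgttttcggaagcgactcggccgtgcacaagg
The Sult1a1 window at chr7:126676369-126676668 on the minus strand holds 2 separate arms, at positions -212 and -34, and is shown for comparison with the arms in capitals.
Sult1a1: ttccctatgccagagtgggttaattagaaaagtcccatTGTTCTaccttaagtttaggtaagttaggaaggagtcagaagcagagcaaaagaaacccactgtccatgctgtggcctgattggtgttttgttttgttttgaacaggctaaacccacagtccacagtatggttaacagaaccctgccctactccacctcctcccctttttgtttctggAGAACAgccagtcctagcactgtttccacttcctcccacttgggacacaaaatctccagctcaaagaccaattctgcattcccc
A single arm is common, in 19.0% of all windows. It was found in 5 of the 15 windows of 7 of the 8 genes (3 of Sgk1 and 1 each of Sult1a1 and Tsc22d3). No palindrome or arm was found in these windows of Fkbp5, Cdkn1a, Hsd11b1 or Nr3c2, which says only that these letters are not there. Nr3c1 was left out of this count by choice, not for lack of a match, and its promoter is not described. A match is a description of the sequence and was not measured as binding.

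Tsc22d3 encodes the glucocorticoid-induced leucine zipper, a mediator of anti-inflammatory hormone action. Its brightest probe (A_51_P235821) read 1.94, 2.32 and 2.40 on knock-out arrays 53, 48 and 54, against 2.90, 2.48 and 2.21 on control arrays 15, 62 and 16. Control 15 was highest and knock-out 53 lowest at all 3 probes, and the other 4 arrays lay between. The 3 differences were -0.31 (95% interval -0.80 to 0.18), -0.30 (-0.83 to 0.23) and -0.22 (-0.64 to 0.21), with adjusted p from 0.792 to 0.837 in limma. Without control 15 they shrank to -0.12, -0.09 and -0.03. These probes kept their sign within both slides, at -0.54, -0.56 and -0.51 within slide 1 and -0.41, -0.40 and -0.18 within slide 2. Those values rest on the highest and the lowest array, as control 15 is the only control of slide 1 and knock-out 53 the only knock-out of slide 2.

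Cdkn1a encodes the cyclin-dependent kinase inhibitor p21, which glucocorticoids and the p53 pathway are known to induce. Its probe is printed in 10 spots on each array, and the SD over the 10 spots was 0.05 to 0.13 on the knock-out arrays and 0.04 to 0.06 on the control arrays. The level was -0.79, -0.72 and -0.53 on knock-out arrays 53, 48 and 54, against -0.45, -0.79 and -1.16 on control arrays 15, 62 and 16. Control 16 was lowest, and control 15 exceeded knock-out 54, the next highest array, by 0.08. The mean was -0.68 ± 0.13 in knock-outs and -0.80 ± 0.35 in controls (SD, n = 3 each). The difference of +0.12 had an interval of -0.32 to 0.56 (limma, adjusted p = 0.929), and it was -0.06 without control 16 and +0.30 without control 15.

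**Figure D2:**
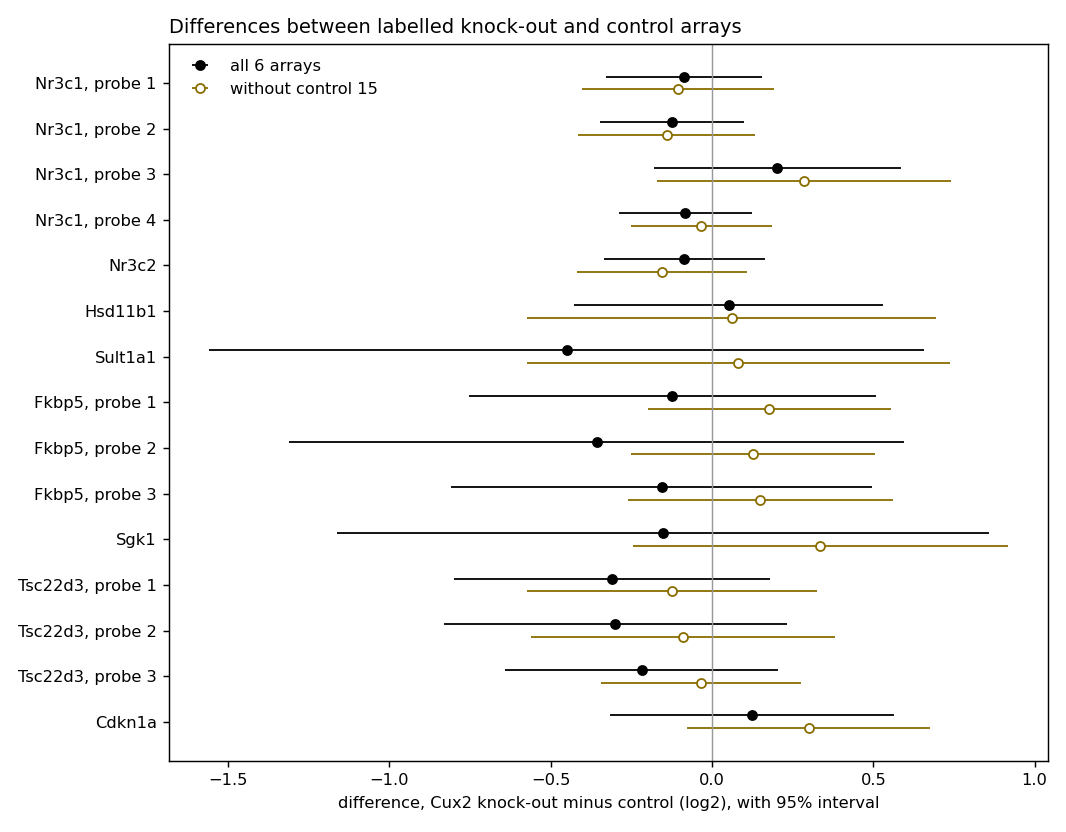
Difference between labelled knock-out and control arrays (log2) with its 95% interval for each tested probe, from all 6 arrays (filled) and without control 15 (open). For these 15 probes every interval includes 0, and the 3 Fkbp5 probes, Sgk1 and Sult1a1 lie left of 0 with all arrays and right of 0 without control 15.

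A list of 30 further genes known to respond to glucocorticoids also had many of its highest values on control 15. Of the 28 that were tested, by their brightest probe, 20 had their highest value on control 15, against 23.1% of all 17124 genes, and 0, 3 and 1 on knock-out arrays 54, 48 and 53. In the comparison of groups 0 of the 28 passed an adjusted p of 0.05 in limma, where 0.128% of all genes did, and 22 were lower in knock-outs with a median of -0.14 (all genes 51.8% lower, median -0.01). An unadjusted p under 0.05 was reached by 4 of the 28, against 8.27% of all genes. Without control 15 the median was 0.01, and 13 of the 28 were lower.

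Plin4, a lipid droplet coat protein, had the widest gap between control 15 and the next array among the 28, at 1.67 on the log2 scale. It read -0.37, 0.96 and 0.12 on knock-out arrays 53, 48 and 54, against 2.63, -1.64 and -0.84 on control arrays 15, 62 and 16, so that control 15 was highest and the other 2 controls lowest. The transcription factor Cebpd stood at 1.51, 2.04 and 2.22 in the knock-outs, against 2.98, 1.81 and 1.54 in controls 15, 62 and 16. Plin4 and Cebpd were singled out after their values were seen.

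Per1, a clock repressor that glucocorticoids also induce, was lower in all 3 knock-outs: 1.93, 1.75 and 2.07 on arrays 53, 48 and 54, against 2.30, 2.47 and 2.66 on control arrays 15, 62 and 16. Among the controls array 15 was the lowest here, and the difference of -0.56 (SE 0.13) did not pass after adjustment (limma, adjusted p = 0.300) and was -0.65 without control 15. Cdkn1c, a cyclin-dependent kinase inhibitor, and Tiparp, a mono-ADP-ribosyltransferase, had the same order of groups, at -0.30 (SE 0.10, limma adjusted p = 0.518) and -0.28 (SE 0.09, limma adjusted p = 0.525). Sdc4, a cell surface proteoglycan, was at -0.56 (SE 0.20, limma adjusted p = 0.572) at its brighter probe, where control 15 was the highest array, and +1.03 at its other probe, so its direction is not settled by the array. In the promoter windows of 24 of these genes, 1 of 27 held a single arm of the response element, against 19.0% of all windows. The palindrome was found in 0 of the 27, against 0.00913% of all.

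**Figure D3:**
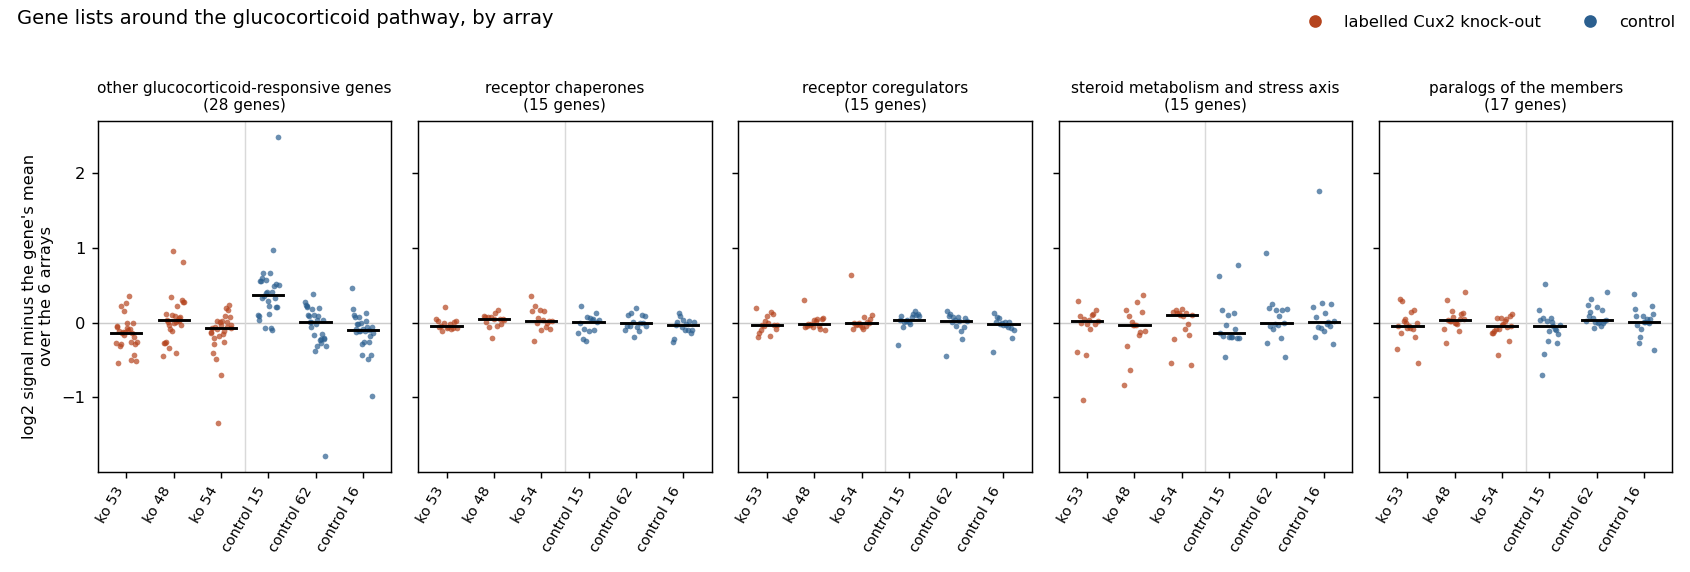
Each point is 1 gene's log2 signal minus its mean over the 6 arrays, by array, for 5 lists, with the median of the list as a bar. The responsive genes have a mean of 0.42 on control 15, while the means of the other 4 lists lie between -0.08 and 0.13 on every array.

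The chaperones that fold and hold the receptor did not separate the arrays in this way. Of 15 tested, 6 were lower and 9 higher in knock-outs (all genes 51.8% lower), with a median of 0.03. In limma 0 passed an adjusted p of 0.05 (all genes 0.128%). An unadjusted p under 0.05 was reached by 1, against 8.27% of all genes. On control 15 were the highest values of 2 of the 15, against 23.1% of all genes. St13, an Hsp70-interacting protein, had +0.33 (SE 0.11, limma adjusted p = 0.518) at its brightest probe and +0.29 and +0.25 at the others. Ppp5c, a phosphatase bound to Hsp90, was at +0.17 and at -0.13 at its second probe, Stip1, which links Hsp70 to Hsp90, at +0.17, and Dnajb1, an Hsp40 cochaperone, at -0.20. Hsp90aa1 and Hsp90ab1, the cytosolic Hsp90 proteins, stood at +0.03 and -0.11.

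Coregulators that the receptor recruits to DNA behaved likewise, with 9 of 15 lower (all genes 51.8%) and a median of -0.04. The threshold was passed by 0 (all genes 0.128%), and 2 reached an unadjusted p under 0.05, against 8.27% of all genes. Med1, a subunit of the Mediator complex, had the largest difference of the 15 and read 1.55, 1.64 and 1.99 on knock-out arrays 53, 48 and 54, against 1.05, 0.89 and 0.95 on control arrays 15, 62 and 16. The groups did not overlap at this probe, and the difference was +0.76 (SE 0.13, limma adjusted p = 0.180), but 2 further probes of Med1 stood at +0.10 and -0.07. Tgs1, a cap methyltransferase that binds nuclear receptor coactivators, was at -0.22 (SE 0.08, limma adjusted p = 0.579) at its brightest probe. Its other probes stood at -0.19, -0.04 and -0.03. The coactivator Ncoa3 was at -0.13 at its brightest probe and at +0.27 and -0.12 at its others. The corepressor Ncor1 was at -0.10 at its brightest probe and from -0.09 to +0.08 at its others.

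Of 15 tested genes of steroid metabolism and the stress axis, 7 were lower and 8 higher (all genes 51.8% lower) with a median of 0.00. The threshold was passed by 0 (all genes 0.128%), and 3 reached an unadjusted p under 0.05, against 8.27% of all genes. Cyp11a1, the mitochondrial enzyme that begins steroid synthesis, was dim and read -4.31, -4.75 and -4.45 on knock-out arrays 53, 48 and 54, against -3.29, -2.98 and -3.70 on control arrays 15, 62 and 16. The knock-outs all lay below the controls, at a difference of -1.18 (SE 0.20, limma adjusted p = 0.182), and its other probe gave -1.23 (SE 0.15, limma adjusted p = 0.0625). Each probe cleared the background test on 2 knock-out arrays, fewer than the 3 of the controls. Both probes thus entered the test only through the controls, which favours a lower knock-out value. The difference of Cyp11a1 is therefore not read as a result, although the gene is among the 3 counted above. Under normexp background correction the brighter probe gave 0.012. Crhbp, which binds corticotropin-releasing hormone, read 1.37, 1.24 and 1.22 on the knock-out arrays, against 0.95, 0.81 and 0.88 on the controls. Its difference of +0.40 (SE 0.08) did not pass either (limma, adjusted p = 0.253). Srd5a1, a steroid 5-alpha-reductase, was at -0.30 (SE 0.12, limma adjusted p = 0.614). H6pd, which supplies cofactor to the Hsd11b1 enzyme, was at +0.18 (SE 0.09, limma adjusted p = 0.689).

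Relatives of the members gave 9 of 17 lower (all genes 51.8%), a median of -0.01 and 0 past the threshold (all genes 0.128%). An unadjusted p under 0.05 was reached by 2, against 8.27% of all genes. These were Esr1 and Cdkn1c, and Cdkn1c is also on the list of responsive genes and was counted there. Fkbp4 is likewise both on this list and among the chaperones. Sgk2 and Sgk3, kinases close to Sgk1, stood at +0.25 and -0.26, and Sgk2 was lowest on control 15, at -1.94. The estrogen receptor Esr1 was at -0.38 (SE 0.12, limma adjusted p = 0.506), with all knock-outs below all controls. The sulfotransferase Sult5a1 was at +0.34, and at +0.08 without control 15. It was well above background on 3 knock-out and 2 control arrays. Sult5a1 thus entered the test only through the knock-outs, which favours a higher knock-out value, and its difference is not read as a result. Tsc22d4, a relative of Tsc22d3, was at -0.12, with further probes at -0.39 and +0.01.

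The array order of Fkbp5 was compared with that of 16021 genes well above background on all 6 arrays, by the mean absolute difference of log2 values after centring each gene on its own mean. The nearest gene was Klf15, a transcription factor on the list of responsive genes, at 0.05, followed by Masp2, a complement protease, at 0.07 and an unnamed transcript (AK035842) at 0.08, where the median over all genes was 0.27. Klf15 read 0.71, 0.82 and 0.67 on knock-out arrays 53, 48 and 54, against 1.48, 0.50 and 0.70 on control arrays 15, 62 and 16. For Nr3c1 the nearest genes were Ldhb, a lactate dehydrogenase subunit, at 0.01, LOC664903 at 0.02 and Atox1, a copper chaperone, at 0.02, with a median of 0.13. These distances rest on 6 arrays and describe them only.

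**Figure D4:**
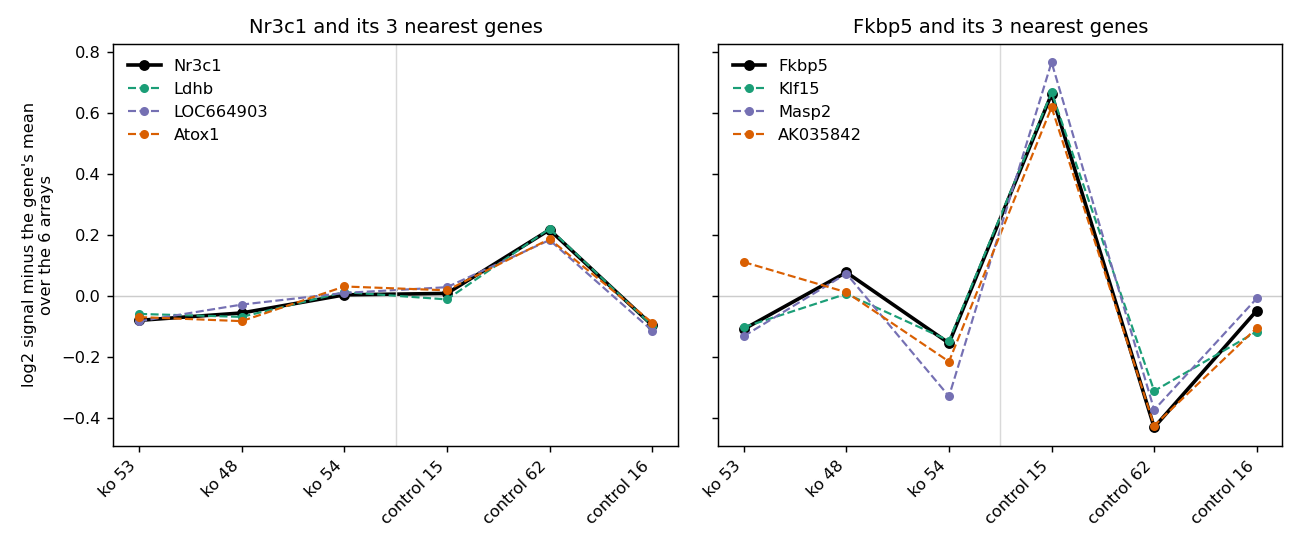
Log2 signal minus the gene's mean over the 6 arrays for the brightest probe of Nr3c1 and of Fkbp5 (black) and for the 3 genes nearest to each (dashed). The Fkbp5 group peaks on control 15, whereas the Nr3c1 group peaks on control 62 and spans a narrower range.

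Other cell types were read from marker lists, given as the mean deviation of a list's genes on each array. For the counts that follow, 23.1% of all genes were highest on control 15 and 51.8% were lower in knock-outs. Astrocyte markers stood at -0.15, -0.05 and -0.08 on knock-out arrays 53, 48 and 54, against 0.05, 0.14 and 0.09 on control arrays 15, 62 and 16 (8 of 9 lower). Vessel markers averaged from -0.03 to 0.08 in the knock-outs and from -0.05 to 0.01 in the controls, although single genes went opposite ways on control 15, where the glucose transporter Slc2a1 was 0.66 above the next array and the receptor Tek was lowest, at -3.46. Oligodendrocyte markers were highest on control 62, at 0.36, with control 15 at -0.13. Markers of striatum were at -0.36, -0.14 and -0.28 in the knock-outs, against 0.55, 0.49 and -0.27 in controls 15, 62 and 16, so control 15 shared its high value with control 62, and 5 of the 8 genes were highest on control 15. Hippocampal markers were at -0.30, 0.04 and 0.18 in the knock-outs, against 0.25, 0.04 and -0.21 in controls 15, 62 and 16, and 4 of 7 were highest on control 15. Interneuron markers were at -0.11, -0.04 and 0.09 in the knock-outs, against 0.15, 0.01 and -0.10 in the controls, with 4 of 8 highest on control 15. The 2 red blood cell genes tested were highest on knock-out 54, at 0.89, and lowest on control 62, at -0.87. The summed striatal signal ranged from 5.72 to 6.01 in knock-outs and from 5.77 to 6.66 in controls (log2, 8 of 8 genes tested). Choroid plexus markers were lowest on control 15, at -0.81, and microglial markers were highest on control 16, at 0.42, with 10 of 10 lower in the knock-outs. The part of striatal or other tissue in the values of the responsive genes was not tested, and in bulk tissue fewer cells of a type and less RNA per cell cannot be told apart.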

How the data were processed

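Per the file headers, the authors quantified the spots with Agilent Feature Extraction 9.1.3.1. The intensity used here is its processed signal, for which that software subtracts background, corrects spatial trends and puts a stand-in value on dim spots. The authors' deposited log2 values form a second table. All of its 6 columns follow a common distribution with a median of 6.75, and each has the rank order of the scanner signal, so they appear quantile normalized, with higher values for brighter probes.

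Each array has 45018 spots, of which 1639 control spots were left out, as were single readings with an outlier flag (0 at probes of the 8 genes), and 0 spots were saturated. Spots of a probe were averaged. Scaling set the 75th percentile of 41174 probes to 0 on the log2 scale. The filter on dim probes uses the group labels. Differences are knock-out minus control from lmFit and eBayes of limma 3.58.1 (R 4.3.3), two-sided, with Benjamini-Hochberg adjustment over 25507 probes, and the procedure was tested on simulated data. Probes of other genes were named through RefSeq by accession, symbol or synonym (8455 kept the array's name), and the brightest tested probe stood for a gene.

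The 8 genes and the gene lists were chosen with earlier results of these data known. The text names all probes of the 8 genes, for each list up to 4 genes of lowest p, the 3 genes nearest in pattern to Nr3c1 and to Fkbp5, and Cux2. Plin4, Cebpd, Hsp90aa1, Hsp90ab1, Sgk2, Sgk3, Slc2a1 and Tek were added after their values were seen. Alternatives changed the scaling, the background correction (normexp, offset 50), the filter, the variance model, the slide block, the source of the values and the arrays used. The number of arrays limits the precision.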

Additional observations from a re-analysis of the deposited data

How the results depend on the processing

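Under all 17 alternative fits 0 of the tested probes of these genes, and 0 genes of the 5 lists, passed an adjusted p of 0.05 in limma. The lowest adjusted p of a probe of these genes was 0.383, with slide as a block, where 5 probes reached an unadjusted p under 0.05 (7.81% of all). Of the 15 probes 5 were lower unscaled (13.2% of all) and 9 with normexp (36.7%). Over the whole array the count of 33 called probes became 0 with normexp background correction, 3 with a filter of at least 1 array, 2 without a filter and 15 with slide as a block. It ranged from 2 (without control 15 or control 16) to 62 (without knock-out 53) and was 13 without knock-out 54. The count of probes highest on control 15, tried under other scalings after the data were seen, was 6 of 15 with normexp and 9 or 10 otherwise. No paired analysis was possible because the groups share no sample number.

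Leaving out single arrays turned some signs. The differences then ranged from -0.056 to 0.30 for Cdkn1a, from -0.37 to 0.18, -0.62 to 0.13 and -0.37 to 0.15 for the 3 Fkbp5 probes, from -0.16 to 0.25 for Hsd11b1, from -0.48 to 0.34 for Sgk1 and from -0.85 to 0.082 for Sult1a1. Unscaled arrays shifted the median of all probes to 0.17. There the differences were 0.052 and 0.018 for A_51_P383689 and A_52_P337899 of Fkbp5, 0.023 for Sgk1, 0.088, 0.051 and 0.092 for A_52_P138090, A_52_P63106 and A_51_P355693 of Nr3c1, 0.089 for Nr3c2, 0.057 for Tsc22d4, 0.048 for Ncoa3 and 0.078 for Ncor1, all below that shift. With normexp they were 0.035 and 0.13 for A_51_P383689 and A_52_P337899 of Fkbp5, -0.020 for Hsd11b1, 0.29 for A_51_P355693 of Nr3c1, 0.43 for Nr3c2, 0.26 for Esr1 and 0.012 for Cyp11a1, and the cause was not tested.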
